A study of Mus musculus with 10 samples.

Results

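The genes described here are 32 genes of fatty acid oxidation and ketone body metabolism, of 19456 genes listed in at least 1 library. They were chosen by symbol, by a rule that uses no measured value, though the set was put together with earlier results of these data known, and all 32 were listed in every library. RNA was sequenced on the BGISEQ-500 platform, after poly-A selection, from intestinal tissue of C57BL/6 mice in 4 groups. Untreated wild type mice (WT) and untreated transgenic mice that overexpress ITGB6 (TG) gave 3 libraries each. WT and TG mice given 2.5% dextran sulfate sodium by mouth (DSS), set up as a model of intestinal fibrosis, gave 2 libraries each. ITGB6 is the β6 subunit of an epithelial integrin. The promoter that drives the transgene, the age of the mice, the length of the DSS course and the part of the intestine are not given in the sources used here. The labels do not say whether libraries came from separate animals, so p-values measure only the spread between these samples, which may be technical.

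Fatty acids are activated to acyl-CoA, carried into mitochondria as carnitine esters, and shortened in a repeated spiral of dehydrogenation, hydration, a further dehydrogenation and thiolysis, whose electrons pass through the electron transfer flavoprotein to the respiratory chain. Peroxisomes run a related spiral on very long and branched chains. Acetyl-CoA from the spiral can be turned into ketone bodies, and the colonic epithelium is known for burning butyrate, a short-chain fatty acid made by bacteria, and for its own ketone body synthesis. The nuclear receptor PPARα, encoded by Ppara, activates many of these genes in liver and intestine.

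Library depth ran from 15393859 to 18284704 expected counts. Epithelial keratin, adhesion and brush border transcripts were abundant in every group, at 14108 to 19760 CPM summed over 7 markers (CPM being expected counts scaled to library size with TMM factors). The 7 small intestinal enterocyte markers summed to 278 to 446 CPM, mostly from Slc5a1, Apob and Alpi. Among them Apoa4 did not exceed 0.528 CPM. At an adjusted p under 0.05 in edgeR, Fabp6 rose with DSS in WT while Slc5a1 and Alpi fell. Each of these calls was lost without WT untreated 2, among other libraries. In TG, Slc5a1 fell and Mttp rose with DSS, and both calls were also lost without some libraries. Adipocyte markers summed to at most 0.310 CPM and smooth muscle markers to at most 2.26 CPM in any library. Human ITGB6 transcripts were at 3630 to 3912 CPM in untreated TG, 2200 and 2452 CPM in TG after DSS and at most 1.13 CPM in WT. Xist, an X-linked transcript of females, was at most 0.416 CPM in the 6 untreated libraries and 307 to 739 CPM in the 4 DSS libraries, and Y-linked Kdm5d was at 26.6 to 44.2 CPM and at 0 in turn. DSS treatment and sex therefore cannot be told apart in any DSS comparison below. The library TG untreated 1 stood apart from its group (Spearman 0.9734 and 0.9754 across genes, against 0.9932 between the other two).

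All 32 genes passed the low-count filter. Levels compared between genes are FPKM, which is scaled to gene length. Hadh, the short-chain 3-hydroxyacyl-CoA dehydrogenase of the mitochondrial spiral, was the most abundant, with a mean of 235 FPKM over the 10 libraries. Etfb, a subunit of the electron transfer flavoprotein, followed at 199.6 FPKM, and Acads, the short-chain acyl-CoA dehydrogenase that acts on butyryl-CoA, at 161 FPKM. Of the peroxisomal genes, Acaa1a was at 89.7, Hsd17b4 at 38.7 and Ehhadh at 22.2 FPKM. The ketone body enzymes Bdh1 and Acat1 were at 79.5 and 55.0 FPKM. Among the least abundant were Acsl1 at 8.32 FPKM, Ppara at 7.84 FPKM, Acadsb at 5.89 FPKM and Acsl4 at 2.93 FPKM. From the lowest to the highest library, CPM differed least for Acat1, by 1.19 times, and most for Acsl4, by 3.70 times, and Ppara, by 3.15 times. The low end for Acsl4 was TG untreated 1 and that for Ppara was WT DSS 2.

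**Figure D1:**
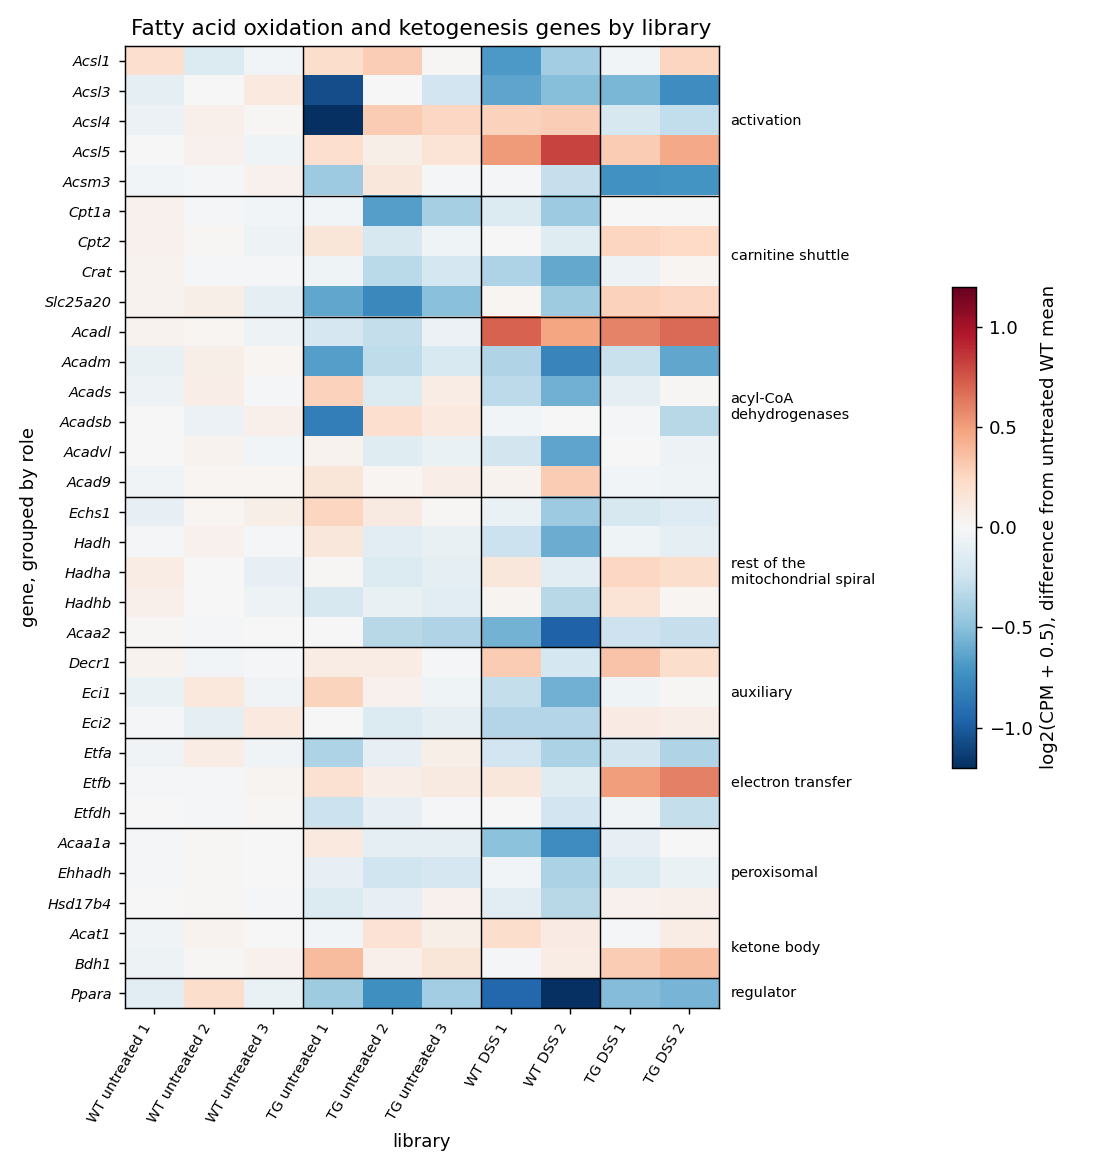
Each cell is 1 gene in 1 library, coloured by log2(CPM + 0.5) minus the mean of the 3 untreated WT libraries, with genes in rows by role and libraries in columns by group; colours saturate beyond 1.2 either way. WT DSS 2 is below the untreated WT mean for 15 of the 18 mitochondrial and all 3 peroxisomal rows, Acadl is red in all 4 DSS libraries, and Acsl3 and Acsl4 are dark blue in TG untreated 1.

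In WT mice, DSS went with lower transcripts at several steps of oxidation. Of the 32 genes, 8 fell and 2 rose at an adjusted p under 0.05 in edgeR's quasi-likelihood test, against 19.8% of the 14072 genes tested (9.62% lower and 10.2% higher, 1354 and 1434 genes; 1699 and 1147 with total count scaling). Ppara fell most, to less than the level of any untreated library, and Acsl1, Crat, Acadvl, Hadh, Acaa2, Eci2 and Acaa1a fell with it. Acsl5 and Acadl rose. The share called, 10 of 32, stood above the background share; the median log2 fold change of the 32 was -0.21 against 0.002 for all genes tested, with 23 of 32 below 0. For 16 of the 32 both WT DSS libraries lay below all 3 untreated WT libraries (29.1% of all genes) and for 5 both lay above (28.4%). In bulk tissue, fewer cells of a type and less RNA per cell cannot be told apart. Leaving out WT DSS 2, the lower of the pair, gave a count of 3 (Acsl5, Acadl and Ppara). The count was 5 when WT untreated 1 was left out, 6 for WT untreated 3 and 15 for TG untreated 1. Over the whole set, WT DSS 1 had a median log2 difference from untreated WT of -0.06 and WT DSS 2 of -0.36.

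In TG mice Acadl rose with DSS as it did in WT, and 3 further genes passed. Slc25a20, Acadl and Etfb rose and Acsm3 fell, 4 of 32 against 5.48% of all genes (3.33% higher and 2.15% lower, 468 and 303 genes; 413 and 402 with total count scaling). The median log2 fold change was -0.02 (all genes 0.014), with 15 of 32 above 0. Without TG untreated 1 the count was 8, with Cpt1a and Cpt2 added among those higher and Acsl3 and Acsl4 among those lower. It was 1 without either TG DSS library and 2 without any untreated library other than TG untreated 1.

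The difference between these responses, the genotype by DSS interaction, passed for Slc25a20 alone, 1 of 32 against 0.846% of all genes. Its log2 value was above 0 for 25 of 32 genes with a median of 0.32 (all genes 0.004), meaning a higher DSS to untreated ratio in TG than in WT. At an unadjusted p under 0.05 there were 12 of 32, against 12.1% of all genes. DESeq2 called 4 of 32 (Acaa1a, Crat, Ppara and Slc25a20), against 3.06% of all genes. Without TG untreated 1, edgeR called 8: Acaa1a, Acaa2, Cpt1a, Crat, Ppara and Slc25a20 above 0, and Acsl4 and Acsm3 below 0. Without WT DSS 1 it called 3 (Acaa2, Ppara and Slc25a20), and it called 0 without any of the other 8 libraries. The interaction shares its libraries with the 2 DSS comparisons and is not separate evidence.

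Between genotypes, Slc25a20 was the only gene that passed in untreated mice, being lower in TG (1 of 32 against 3.7% of all genes; median -0.08, all genes -0.016). Without TG untreated 1, Cpt1a was called as well. After DSS no gene passed in edgeR (0 of 32 against 0.185% of all genes), although 24 of 32 log2 fold changes were above 0, with a median of 0.26 (all genes -0.015). At an unadjusted p under 0.05 edgeR gave 17 of 32, counted in either direction, against 11.2% of all genes. DESeq2 at its adjusted threshold gave 4 (Acaa1a, Acsl1, Eci2 and Etfb, all higher in TG), against 1.83% of all genes. The limma fits of FPKM gave 0. For 17 of the 32 both TG DSS libraries lay above both WT DSS libraries, against 22% of all genes. For 5 of the 32 both lay below, a direction for which no share of all genes is given. Without TG untreated 1 edgeR called 3 (Acaa1a and Etfb higher, Acsm3 lower) and without WT DSS 1 it called Etfb.

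**Figure D2:**
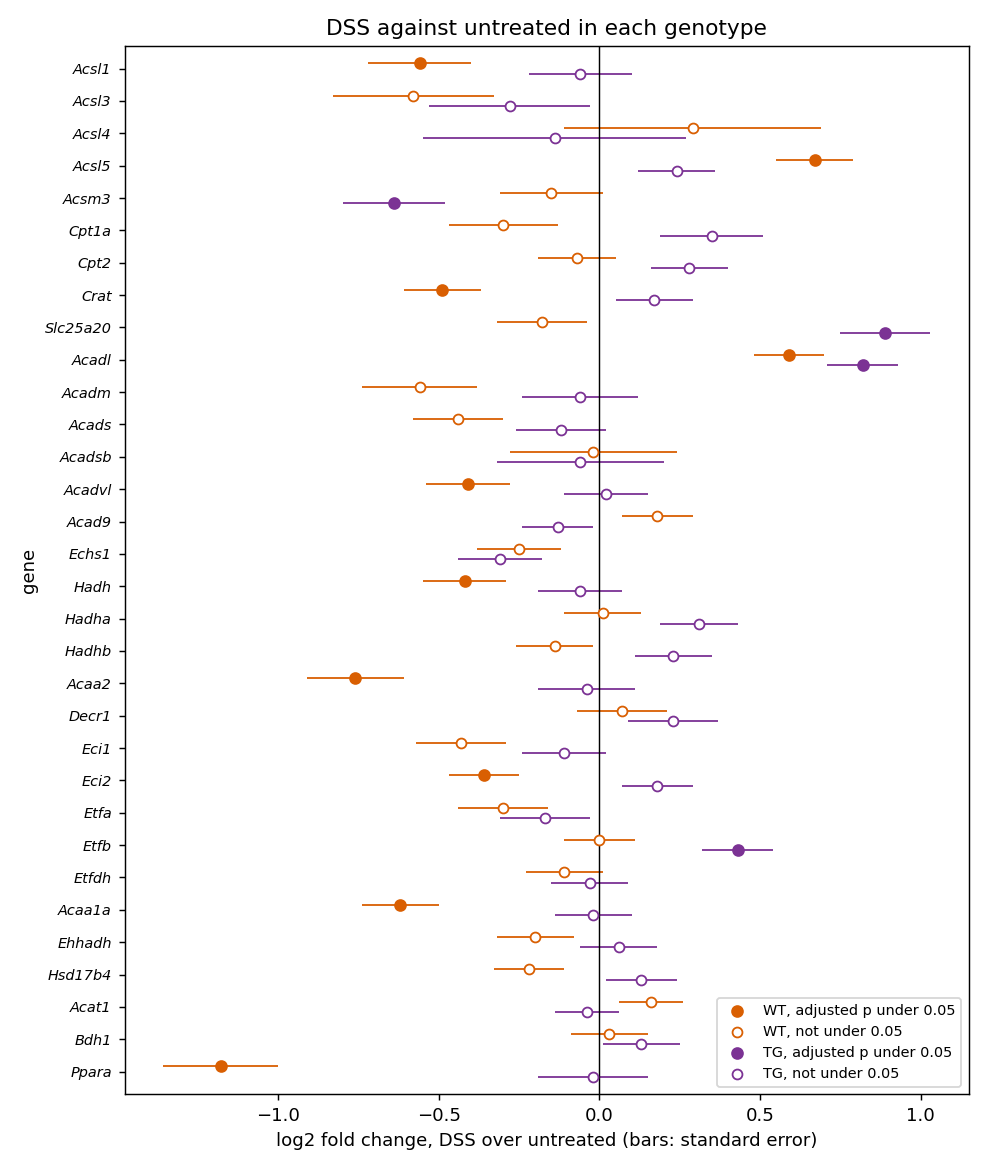
Each row is a gene and each point its log2 fold change of DSS over untreated in WT (orange) or TG (purple), with the standard error as a bar; filled points have an adjusted p under 0.05 in edgeR. Most orange points lie left of the purple ones, with the widest gaps at Ppara and Slc25a20, while for 7 genes, Acsl5 and Acsm3 among them, the purple point lies to the left.

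Ppara (gene 19013, chromosome 15, 85734910 to 85806851) encodes the receptor that activates this pathway. Its level was 71.8, 90.9 and 74.2 CPM in untreated WT and 58.3, 46.9 and 58.8 CPM in untreated TG. After DSS it was 40.7 and 28.9 CPM in WT and 54.8 and 53.3 CPM in TG. WT DSS libraries were the lowest of all 10, the TG DSS libraries lay within the untreated TG range, and every untreated WT library lay above every other. In WT the fall with DSS was 2.27 times, from 79.0 ± 10.4 CPM (SD, n = 3) to 34.8 ± 8.39 CPM (SD, n = 2), a log2 fold change of -1.18 (SE 0.18, adjusted p = 0.0023) that passed in all 10 fits that left out 1 library. In TG the log2 fold change was -0.02 (SE 0.17, adjusted p = 0.973). The interaction was 1.16 (SE 0.24, adjusted p = 0.0674), the largest among the 32, and did not pass in edgeR. TG against WT was -0.53 untreated (adjusted p = 0.0881) and 0.63 after DSS (adjusted p = 0.245).

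Slc25a20 (gene 57279, chromosome 9, 108662136 to 108684642) encodes the carnitine-acylcarnitine translocase, which carries acylcarnitines across the inner mitochondrial membrane. It was at 237, 242 and 213 CPM in untreated WT and at 149.8, 135 and 162 CPM in untreated TG. After DSS it was at 235 and 172 CPM in WT and at 279 and 273 CPM in TG. The 3 untreated TG libraries were the lowest of all 10 and the 2 TG DSS libraries the highest. In untreated mice TG was 1.55 times lower than WT (log2 -0.63, SE 0.13, adjusted p = 0.0277). That call held only in the fits without TG untreated 1, WT DSS 1 or WT DSS 2, with adjusted p from 0.0133 to 0.109 (without WT untreated 2). In TG it rose 1.85 times with DSS (log2 0.89, SE 0.14, adjusted p = 0.00562), a call lost when TG DSS 1 (adjusted p = 0.0554) was left out, and likewise TG DSS 2 (adjusted p = 0.0577). In WT the log2 fold change with DSS was -0.18 (adjusted p = 0.408), with overlapping libraries. The interaction was 1.08 (SE 0.20, adjusted p = 0.0423). It passed only in the fits without TG untreated 1 or WT DSS 1, with adjusted p from 0.0125 to 0.188 (without TG DSS 1).

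The other 3 genes of the carnitine shuttle had the signs of Slc25a20 in each of the 5 comparisons, and of these only Crat passed, in WT with DSS. Cpt1a (gene 12894), the outer membrane transferase that controls entry of long chains, was at 507, 484 and 479 CPM in untreated WT, 477, 310.2 and 371 CPM in untreated TG, 437 and 361 CPM in WT after DSS and 493 and 491 CPM in TG after DSS. Both other groups lay below untreated WT, and TG after DSS lay within its range. Its log2 fold changes with DSS were -0.30 in WT (adjusted p = 0.25) and 0.35 in TG (adjusted p = 0.273), with an interaction of 0.64 (SE 0.24, adjusted p = 0.307). Crat, the carnitine acetyltransferase, was at 82.6, 79.0 and 78.8 CPM in untreated WT, 77.5, 64.0 and 69.1 CPM in untreated TG, 61.8 and 52.3 CPM in WT after DSS and 76.8 and 81.4 CPM in TG after DSS. The WT DSS libraries were the lowest of all 10. Crat fell with DSS in WT (log2 -0.49, SE 0.12, adjusted p = 0.0199), a call lost without WT DSS 2 (adjusted p = 0.175) or WT untreated 1 (adjusted p = 0.0563). Cpt2, the inner membrane transferase, was at 128, 125 and 118 CPM in untreated WT, 136, 108 and 119 CPM in untreated TG, 124 and 111 CPM in WT after DSS and 148 and 146 CPM in TG after DSS. It was highest in both TG DSS libraries and passed in no comparison (log2 0.28 with DSS in TG, adjusted p = 0.216). All 4 shuttle genes had a log2 fold change with DSS below 0 in WT and above 0 in TG, and their median interaction was 0.65.

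**Figure D3:**
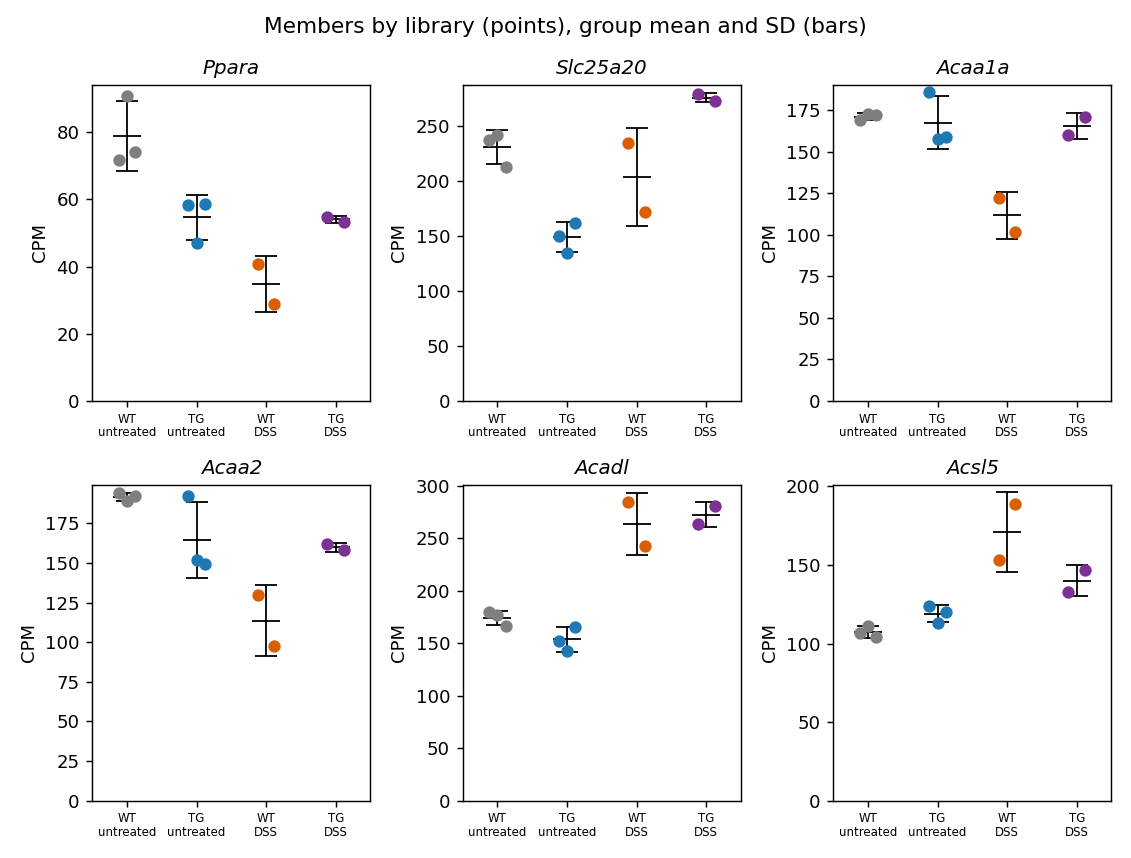
CPM on a linear axis from 0 for 6 genes, with 1 point per library, a bar at the group mean and whiskers of 1 SD. Ppara, Acaa1a and Acaa2 are lowest in WT DSS, Slc25a20 is lowest in untreated TG and highest in TG DSS, Acadl is higher in both DSS groups, and Acsl5 is highest in WT DSS.

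The enzymes that activate fatty acids went different ways. Acsl5 (gene 433256), a long-chain acyl-CoA synthetase abundant in the gut epithelium, was at 107, 111 and 104 CPM in untreated WT, 124, 113 and 120.1 CPM in untreated TG, 153 and 189 CPM in WT after DSS and 133 and 147 CPM in TG after DSS. All 4 DSS libraries lay above all 6 untreated ones. It rose 1.59 times with DSS in WT (log2 0.67, SE 0.12, adjusted p = 0.00448, passing in all 10 fits without 1 library), and its log2 fold change in TG was 0.24 (adjusted p = 0.295). Acsl1, another long-chain synthetase, was at 38.1, 29.4 and 32.5 CPM in untreated WT, 38.4, 40.7 and 33.5 CPM in untreated TG, 20.4 and 24.7 CPM in WT after DSS and 32.4 and 39.7 CPM in TG after DSS. Its 2 WT DSS libraries were the lowest of all 10. Acsl1 fell with DSS in WT (log2 -0.56, SE 0.16, adjusted p = 0.0358), and the call was lost when any one of WT untreated 1, WT untreated 3, WT DSS 1 and WT DSS 2 was left out (adjusted p of 0.108, 0.0739, 0.172 and 0.0715 in turn). Acsm3, a medium-chain acyl-CoA synthetase, was at 159, 160.4 and 168 CPM in untreated WT, 119.7, 179 and 161 CPM in untreated TG, 160.2 and 134 CPM in WT after DSS and 98.0 and 98.4 CPM in TG after DSS. The TG DSS pair was the lowest of all 10. Acsm3 fell with DSS in TG (log2 -0.64, SE 0.16, adjusted p = 0.0473), a call that held only without TG untreated 1, WT DSS 1 or WT DSS 2 (adjusted p 0.00244 to 0.27). Acsl3 and Acsl4 passed in no comparison, with log2 fold changes from -0.58 to 0.30; in TG untreated 1 they were at 97.3 and 5.01 CPM, against 121 to 220.4 CPM and 12.1 to 18.5 CPM in the other 9 libraries.

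Among the acyl-CoA dehydrogenases, which open each turn of the mitochondrial spiral, Acadl rose with DSS in both genotypes. None of the other 5 passed as higher in either. Acadl (gene 11363, chromosome 1, 66830839 to 66863309), the long-chain dehydrogenase, was at 179.7, 177 and 167 CPM in untreated WT, 152, 143 and 166 CPM in untreated TG, 285 and 243 CPM in WT after DSS and 264 and 281 CPM in TG after DSS. Every DSS library lay above every untreated one. It rose 1.51 times in WT (log2 0.59, SE 0.11, adjusted p = 0.00633) and 1.77 times in TG (log2 0.82, SE 0.11, adjusted p = 0.00238), both in all 10 fits without 1 library. The interaction was 0.23 (SE 0.16, adjusted p = 0.644). Acadvl, the very-long-chain dehydrogenase, was at 266, 274 and 260.2 CPM in untreated WT, 275, 241 and 252 CPM in untreated TG, 228 and 172 CPM in WT after DSS and 265 and 255 CPM in TG after DSS. Only the WT DSS libraries lay outside the range of the others. Acadvl fell with DSS in WT (log2 -0.41, SE 0.13, adjusted p = 0.0481), a call that held only without TG untreated 1, TG untreated 2 or WT DSS 1 (adjusted p 0.01 to 0.359). Acadm, the medium-chain dehydrogenase, was at 167, 186 and 181 CPM in untreated WT, 112, 144 and 156 CPM in untreated TG, 139 and 102 CPM in WT after DSS and 148 and 116 CPM in TG after DSS. Its untreated WT libraries were the highest of all 10. Its log2 fold change with DSS in WT was -0.56 (SE 0.18, adjusted p = 0.0515) and in TG -0.06 (adjusted p = 0.892). Acads, Acadsb and Acad9, the last also an assembly factor of respiratory complex I, passed in no comparison; with DSS in WT their log2 fold changes were -0.44 (adjusted p = 0.0548), -0.02 and 0.18.

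In the later steps of the mitochondrial spiral, Acaa2 and Hadh fell with DSS in WT and no gene passed in TG. Acaa2 (gene 52538), the thiolase that releases acetyl-CoA, was at 194, 189 and 192 CPM in untreated WT, 192, 152 and 149 CPM in untreated TG, 129.6 and 97.6 CPM in WT after DSS and 162 and 158 CPM in TG after DSS. The WT DSS libraries were the lowest of all 10. It fell 1.69 times in WT (log2 -0.76, SE 0.15, adjusted p = 0.00841; 0.0831 without WT DSS 2, the only fit of the 10 in which it did not pass), and its log2 fold change in TG was -0.04 (adjusted p = 0.924). Hadh was at 444, 469.5 and 443 CPM in untreated WT, 496, 412 and 426 CPM in untreated TG, 377 and 299 CPM in WT after DSS and 435 and 418 CPM in TG after DSS. Again only the WT DSS pair lay below the rest. Hadh fell in WT (log2 -0.42, SE 0.13, adjusted p = 0.0463), a call that held only without TG untreated 1, TG untreated 2 or WT DSS 1 (adjusted p 0.0192 to 0.335). Hadha, the α subunit of the trifunctional protein, was at 457, 432 and 403 CPM in untreated WT, 434, 385 and 400.0 CPM in untreated TG, 472 and 394 CPM in WT after DSS and 511 and 497 CPM in TG after DSS. Its TG DSS libraries were the highest, with no comparison past the threshold (log2 0.31 with DSS in TG, adjusted p = 0.161, and 0.01 in WT). Hadhb, its β subunit, and the hydratase Echs1 passed in no comparison either (log2 with DSS in WT -0.14 and -0.25, in TG 0.23 and -0.31).

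Of the enzymes that handle unsaturated chains, Eci2, an enoyl-CoA isomerase, was at 59.5, 55.6 and 65.2 CPM in untreated WT, 59.7, 53.7 and 55.3 CPM in untreated TG, 46.8 and 47.0 CPM in WT after DSS and 64.2 and 63.5 CPM in TG after DSS. The WT DSS pair was the lowest. Eci2 fell with DSS in WT (log2 -0.36, SE 0.11, adjusted p = 0.0446), and the call held only without TG untreated 1 or TG untreated 2 (adjusted p 0.0175 to 0.175). Eci1 and Decr1, another isomerase and the dienoyl-CoA reductase, passed in no comparison (log2 with DSS in WT -0.43, adjusted p = 0.0507, and 0.07). Etfb, which takes electrons from the dehydrogenases, was at 159.5, 159 and 165 CPM in untreated WT, 183, 169.7 and 174 CPM in untreated TG, 177 and 146 CPM in WT after DSS and 228 and 246 CPM in TG after DSS. The TG DSS pair was the highest of all 10. Etfb rose with DSS in TG (log2 0.43, SE 0.11, adjusted p = 0.047), a call that held only without TG untreated 1, WT DSS 1 or WT DSS 2 (adjusted p 0.0247 to 0.329). Its partner Etfa and the acceptor Etfdh passed in no comparison. With DSS in TG their log2 fold changes were -0.17 (adjusted p = 0.556) and -0.03 (adjusted p = 0.923).

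In the peroxisomal spiral, Acaa1a fell with DSS in WT. Acaa1a (gene 113868, chromosome 9, 119341028 to 119350296), the peroxisomal thiolase, was at 169, 173 and 172 CPM in untreated WT, 186, 158 and 159 CPM in untreated TG, 122 and 102 CPM in WT after DSS and 160.2 and 171 CPM in TG after DSS. The WT DSS libraries lay below the 8 others. The fall was 1.53 times (log2 -0.62, SE 0.12, adjusted p = 0.00733; 0.0758 without WT DSS 2, the only fit of the 10 in which it did not pass), and in TG the log2 fold change was -0.02 (adjusted p = 0.955). The interaction was 0.60 (SE 0.17, adjusted p = 0.153). Ehhadh, the L-bifunctional enzyme, was at 72.3, 73.3 and 72.9 CPM in untreated WT, 68.0, 61.6 and 63.1 CPM in untreated TG, 71.3 and 55.8 CPM in WT after DSS and 64.9 and 68.9 CPM in TG after DSS. All 7 libraries of the other groups lay below untreated WT, and no comparison passed (log2 -0.20 with DSS in WT, adjusted p = 0.292). Hsd17b4, the D-bifunctional enzyme, did not pass either (log2 -0.22 with DSS in WT, adjusted p = 0.178, and 0.13 in TG). Acaa1a has a near-identical neighbour, Acaa1b, between which reads can be split in uncertain proportions.

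Neither ketone body enzyme among the 32 passed in any of the 5 comparisons. Acat1, the mitochondrial acetoacetyl-CoA thiolase, was at 174, 185 and 178 CPM in untreated WT, 175, 202 and 188 CPM in untreated TG, 207 and 192 CPM in WT after DSS and 177 and 189.7 CPM in TG after DSS. The groups overlapped except for WT after DSS, which was above untreated WT and TG after DSS. Bdh1, which interconverts acetoacetate and β-hydroxybutyrate, was at 218, 231 and 236 CPM in untreated WT, 296, 238 and 253 CPM in untreated TG, 224 and 243 CPM in WT after DSS and 281 and 294 CPM in TG after DSS. TG libraries lay above the WT libraries of the same treatment. Between pairs of groups the largest log2 fold changes were 0.16 with DSS in WT for Acat1 (SE 0.10, adjusted p = 0.318) and 0.30 for TG against WT after DSS for Bdh1 (SE 0.13, adjusted p = 0.413).

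Set side by side, the mitochondrial and peroxisomal steps had like medians with DSS in WT. The ketone body step held only 2 genes, with a median above 0. Over 6 further ketone body genes tested the median was 0.02, with 3 above 0 and 3 below. Over the 18 genes of the shuttle, dehydrogenases, later spiral and electron transfer, 4 fell and 1 rose in WT with a median log2 fold change of -0.22, and 3 rose and 0 fell in TG with 9 of 18 on each side of 0. Among all genes tested, 9.62% fell and 10.2% rose in WT, and 2.15% fell and 3.33% rose in TG. Of the 3 peroxisomal genes, 1 fell in WT (median -0.22) and 0 passed in TG (median 0.06). Of the 2 ketone body genes, 0 passed in either (medians 0.10 and 0.05), and at the shares of all genes counts over 2 or 3 genes say little. The median interaction was 0.36, 0.35 and -0.05 in that order. By library, the median of the mitochondrial genes relative to untreated WT stood at -0.06 and -0.40 in the WT DSS libraries and -0.02 in both TG DSS libraries. The peroxisomal median was -0.12 and -0.38, and -0.10 and -0.01. WT DSS 2 was the lowest library in both steps and WT DSS 1 lay within the untreated TG range in the mitochondrial step. The 5 activation genes, the 3 auxiliary enzymes of unsaturated chains and Ppara were placed in none of these steps. With DSS in WT their log2 fold changes were -0.15 (median), -0.36 (median) and -1.18 in turn. The differences between steps were not tested, since genes of a step are not replicates.

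**Figure D4:**
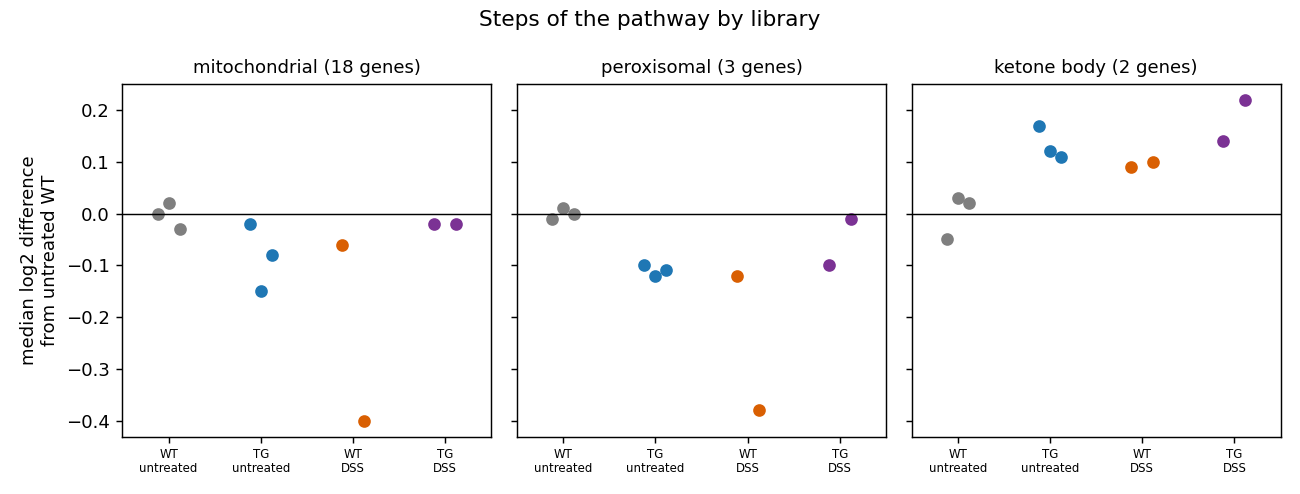
Each point is 1 library, placed at the median over the genes of a step of its log2 difference from the untreated WT mean, in panels for the mitochondrial (18 genes), peroxisomal (3) and ketone body (2) steps. WT DSS 2 sits at -0.40 and -0.38 in the first 2 panels, well below WT DSS 1 at -0.06 and -0.12, and all libraries outside untreated WT sit above 0 in the ketone body panel.

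Of 88 further genes of these pathways, 85 were listed and 75 passed the low-count filter. With DSS in WT 18 fell and 3 rose, against 9.62% lower and 10.2% higher among all genes tested, and in TG 2 fell and 6 rose, against 2.15% and 3.33%. In untreated mice TG was higher for 1 and lower for 2 (3.7% of all genes in either direction), after DSS for none in edgeR (0.185% of all genes; 18 of 75 at an unadjusted p under 0.05, against 11.2%), and the interaction passed for 3, all above 0 (0.846% of all genes). The count of 21 with DSS in WT was 3 without WT DSS 2, 10 without WT untreated 1 and 13 without WT untreated 2 or 3, and the count of 8 in TG was 3 without either TG DSS library and 5 without TG untreated 3. Without 1 library the other counts ran from 0 (without WT untreated 2, WT untreated 3 or TG untreated 3) to 5 (without either WT DSS library) in untreated mice, from 0 to 5 (without TG untreated 1) after DSS, and from 0 (without TG DSS 1) to 7 (without WT DSS 1) for the interaction. The median log2 fold change of the 75 was -0.23 with DSS in WT and 0.04 in TG, with a median interaction of 0.30.

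Oxct1, which starts ketone body use, passed in no comparison, with log2 fold changes between pairs of groups from -0.29 to -0.01. Slc16a1, the monocarboxylate transporter that carries butyrate and ketone bodies, was at 438, 428 and 436 CPM in untreated WT, 425, 403 and 423 CPM in untreated TG, 311 and 275 CPM in WT after DSS and 365 and 304 CPM in TG after DSS. All 4 DSS libraries lay below the 6 untreated ones. It fell in WT (log2 -0.57, SE 0.11, adjusted p = 0.0085; 0.0746 without WT DSS 2) and its log2 fold change in TG was -0.32 (adjusted p = 0.144).

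The 3 further genes whose interaction passed are known as targets of PPARα or, for Creb3l3, as its partner. They come from lists chosen for this pathway, so such a link was set in advance and is not a result. Of the 10 PPAR targets outside the spiral that were tested, only 1, Angptl4, passed the interaction. Its log2 value was above 0 for 9 of these 10 and below 0 for 1. Acaa1b was at 18.3, 12.4 and 15.7 CPM in untreated WT, 8.88, 8.56 and 11.2 CPM in untreated TG, 13.1 and 11.3 CPM in WT after DSS and 34.1 and 26.7 CPM in TG after DSS. Both TG DSS libraries stood above all others. Acaa1b rose 3.18 times with DSS in TG (log2 1.67, SE 0.20, adjusted p = 0.0012), and its interaction was 2.01 (SE 0.28, adjusted p = 0.0145; 0.0954 without TG DSS 1, the only fit of the 10 in which it did not pass). Angptl4, a secreted inhibitor of lipoprotein lipase, was at 1.64, 1.49 and 1.29 CPM in untreated WT, 1.01, 0.826 and 1.12 CPM in untreated TG, 1.06 and 2.86 CPM in WT after DSS and 8.14 and 11.9 CPM in TG after DSS. Only TG after DSS stood clear of the rest. It rose 10.1 times in TG (log2 3.34, SE 0.37, adjusted p = 0.000811); its interaction of 2.92 (SE 0.54, adjusted p = 0.041) passed in 3 of the 10 fits without 1 library (those without TG untreated 1, WT DSS 1 or WT DSS 2), with adjusted p from 0.00708 to 0.168. Creb3l3, a transcription factor that works with PPARα in the fasting liver, was at 9.79, 11.2 and 5.47 CPM in untreated WT, 3.04, 4.43 and 4.22 CPM in untreated TG, 4.07 and 2.70 CPM in WT after DSS and 6.97 and 9.19 CPM in TG after DSS. All libraries of untreated WT and of TG after DSS lay above those of the other two groups. It fell with DSS in WT (log2 -1.38, SE 0.34, adjusted p = 0.0192), a call lost without WT untreated 1 (adjusted p = 0.0582), WT untreated 2 (adjusted p = 0.0605) or WT DSS 2 (adjusted p = 0.16). Its interaction of 2.43 (SE 0.46, adjusted p = 0.0444) passed in 3 of the 10 fits (those without WT untreated 3, TG untreated 1 or WT DSS 1), with adjusted p from 0.0298 to 0.181.

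**Figure D5:**
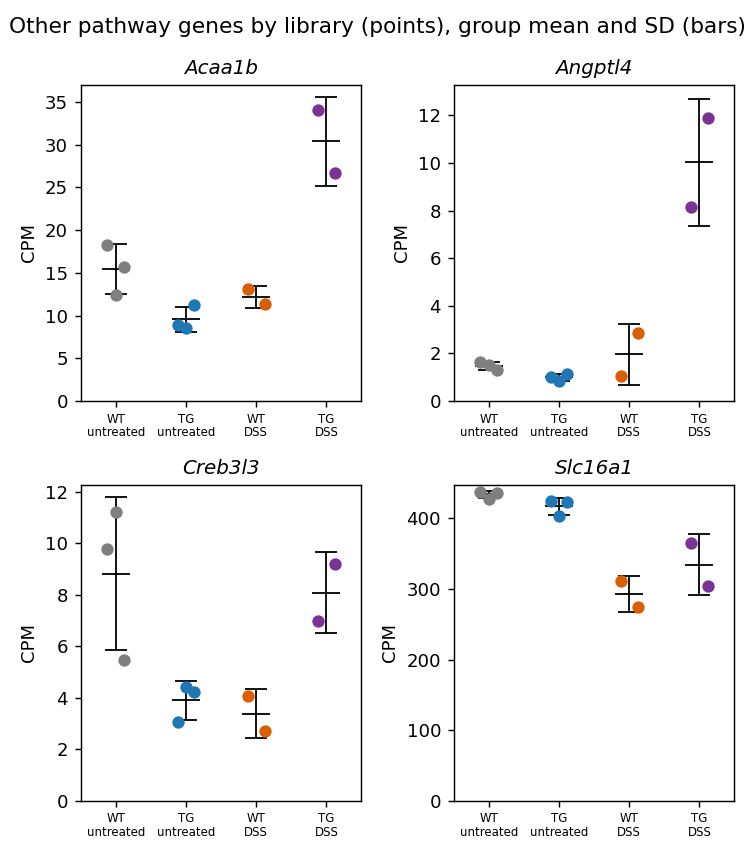
CPM on a linear axis from 0 for 4 further pathway genes, with 1 point per library, a bar at the group mean and whiskers of 1 SD. Acaa1b and Angptl4 are highest in both TG DSS libraries, Creb3l3 is lower in untreated TG and WT DSS than in TG DSS, and Slc16a1 is lower in both DSS groups than in either untreated group.

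Other falls with DSS in WT included Fabp2, the intestinal fatty acid binding protein (log2 -1.40, SE 0.31, adjusted p = 0.0124; 305 ± 19.2 CPM, SD, n = 3, untreated and 115 ± 42.6 CPM, SD, n = 2, after DSS) and Pdk4, a PPARα target that spares glucose (log2 -1.07, SE 0.25, adjusted p = 0.0155); neither passed without WT DSS 2 (adjusted p of 0.108 and 0.135). Vnn1, a pantetheinase and PPARα target, went the other way and rose in WT (log2 1.44, SE 0.26, adjusted p = 0.00556) and in TG (log2 2.09, SE 0.26, adjusted p = 0.00177), both in all 10 fits without 1 library. Acot9, a mitochondrial acyl-CoA thioesterase, also rose in WT (log2 0.67, adjusted p = 0.0245), a call lost without WT untreated 1, WT untreated 3 or either WT DSS library (adjusted p up to 0.101). In TG, Me1, the cytosolic malic enzyme (log2 -0.83, adjusted p = 0.0384), and Acss1, a mitochondrial acetyl-CoA synthetase (log2 -0.62, adjusted p = 0.0174), fell with DSS. Without TG DSS 2 their adjusted p was 0.317 and 0.207, and both calls were also lost without TG DSS 1, that of Me1 without any WT untreated library or TG untreated 3 too. In untreated mice TG was above WT for Me1 (log2 0.81, adjusted p = 0.0351) and below it for Lpin1 (log2 -0.76, adjusted p = 0.0413) and the carnitine transporter Slc22a21 (log2 -0.72, adjusted p = 0.0228). These calls were lost in 6, 6 and 5 of the 10 fits without 1 library, with adjusted p up to 0.145, 0.139 and 0.103. Leaving out WT untreated 2, WT untreated 3 or TG untreated 3 ended all 3 of them, WT untreated 1 those of Me1 and Slc22a21, TG untreated 2 those of Lpin1 and Slc22a21, and either TG DSS library those of Me1 and Lpin1. Ppard, which encodes PPARδ, did not pass (log2 0.15 with DSS in WT, adjusted p = 0.695, and 0.20 in TG), nor did the coactivator Ppargc1a (log2 -0.63 in WT, adjusted p = 0.0715, and -0.48 in TG).

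Markers of absorptive colonocytes, the cells that oxidise butyrate, moved with these groups, though the ranges of some groups overlapped. The summed level of 7 such markers was 11601 to 13559 CPM in untreated WT and 7711 to 11282 CPM in untreated TG. After DSS it was 4676 and 7702 CPM in WT and 9669 and 12107 CPM in TG, none of the 7 being under 1 CPM. Most of the sum was Car1, which was at 4428 CPM in TG untreated 1, the lowest untreated library, and at 7641 and 7649 CPM in the other untreated TG libraries. Guca2a had means of 1202 CPM in untreated WT and 1238 CPM in untreated TG. With DSS in WT, Car1, Car2, Car4, Slc26a3, Aqp8 and Guca2a fell and Ceacam20 rose. Of the 7 only Car4 passed the interaction in edgeR (log2 1.68, adjusted p = 0.00776), with lower levels in untreated TG and WT after DSS. The 7 general epithelial markers summed to 14108 to 17670 CPM in WT after DSS and 15773 to 17179 CPM in untreated WT. Of these calls in WT, those of Car1, Car4, Slc26a3 and Ceacam20 were each lost without at least 1 library, and the interaction of Car4 without TG DSS 1 (adjusted p = 0.0507). Leukocyte markers moved with the groups as well. Their sum over 6 genes was 82.9 to 146 CPM in untreated WT, 22.5 to 129.7 CPM in untreated TG, 37.4 and 53.7 CPM in WT after DSS and 33.1 and 38.7 CPM in TG after DSS, with none of the 6 under 1 CPM in every library. With DSS in WT the T cell gene Cd3e fell (log2 -1.55, adjusted p = 0.0203; lost without WT untreated 2 or WT DSS 2), while the myeloid genes Itgam (log2 1.57, adjusted p = 0.00429) and Lyz2 (log2 1.29, adjusted p = 0.0284; lost without any WT untreated library or WT DSS 1) rose. Ptprc, carried by all leukocytes, was at 62.7 to 114 CPM in untreated WT and at 22.4 and 16.1 CPM in WT after DSS (log2 -2.07, adjusted p = 0.061). The part of colonocyte number or maturity, or of leukocyte content, in the results above was not tested.

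Promoters of 26 of the 32 genes were found in the RefSeq table of GRCm38.p6, and the 250 bases before the start were searched on both strands. PPARα binds, with its partner RXR, pairs of the letters AGGTCA set 1 base apart. The single AGGTCA was found in 4 of 26 (Acadm, Acadvl, Cpt1a and Echs1), 15.4%, and in 15.8% of the 27025 genes of the table. The pair AGGTCANAGGTCA was in 0 of 26 (0.0407% of all genes), and AGGNCANAGGNCA, which also matches that pair, in 0 of 26 (0.4% of all genes). Absence says only that these letters are not in this window. The 4 promoters shown run 5′ to 3′, with AGGTCA in capitals. They are those of the gene that passed the interaction, of the regulator, of a gene with the motif that fell with DSS in WT, and of the peroxisomal thiolase without it. They lie at chr9:108661886-108662135 (Slc25a20, plus strand), chr15:85735526-85735775 (Ppara, plus strand), chr11:70015429-70015678 (Acadvl, minus strand) and chr9:119341044-119341293 (Acaa1a, plus strand). The windows of Ppara and Acaa1a lie inside the spans given above for these genes, since the start in the promoter table is downstream of the first base of the span.
Slc25a20: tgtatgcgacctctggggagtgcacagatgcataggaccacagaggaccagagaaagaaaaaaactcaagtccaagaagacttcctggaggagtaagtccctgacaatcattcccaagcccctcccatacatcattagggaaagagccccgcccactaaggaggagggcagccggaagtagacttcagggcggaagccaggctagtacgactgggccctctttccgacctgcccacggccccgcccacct
Ppara: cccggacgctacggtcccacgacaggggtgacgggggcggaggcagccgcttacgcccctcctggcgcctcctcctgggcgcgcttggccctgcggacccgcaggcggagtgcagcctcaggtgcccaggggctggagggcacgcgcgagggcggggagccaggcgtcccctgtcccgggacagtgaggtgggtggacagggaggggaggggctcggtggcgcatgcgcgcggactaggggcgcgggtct
Acadvl: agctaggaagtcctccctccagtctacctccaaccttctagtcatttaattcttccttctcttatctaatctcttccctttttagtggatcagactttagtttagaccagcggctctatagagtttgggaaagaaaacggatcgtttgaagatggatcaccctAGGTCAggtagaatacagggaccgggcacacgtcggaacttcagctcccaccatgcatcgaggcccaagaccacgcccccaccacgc
Acaa1a: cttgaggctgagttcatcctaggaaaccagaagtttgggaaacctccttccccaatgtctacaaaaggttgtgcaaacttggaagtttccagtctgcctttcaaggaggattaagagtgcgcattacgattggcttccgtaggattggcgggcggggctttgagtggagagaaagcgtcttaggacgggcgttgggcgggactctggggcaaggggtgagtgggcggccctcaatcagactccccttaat
In Acadvl the motif begins 87 bases before the start. GC content was 56.8% for Slc25a20, 76.4% for Ppara, 49.6% for Acadvl and 53.6% for Acaa1a.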

How the data were processed

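Poly-A RNA of mouse intestinal tissue was sequenced in 10 libraries (3 untreated WT, 3 untreated TG, 2 WT and 2 TG after DSS), grouped by the labels. Per the submitters' processing notes, the mm10 genome was used with RSEM 1.2.12, HISAT2 2.0.4 and Bowtie2 2.2.5, in roles not given in the sources used here. Per the file headers, the authors deposited an expected count and an FPKM value for each gene and library; genes absent from 1 table took the value 0 there. Whether counting used strand is not given in the sources used here. Expected counts were rounded and TMM-scaled, and 14072 genes remained after filterByExpr at a minimum count of 10 and a minimum total of 15. The edgeR 4.0.16 quasi-likelihood test (R 4.3.3) was fitted to all libraries with 1 mean per group and 6 residual degrees of freedom. Benjamini-Hochberg adjustment was over all genes tested, with a threshold of 0.05, and standard errors are on the log2 scale. The test was checked on simulated counts. Alternatives were DESeq2 1.42.0, DESeq2 size factors, total count scaling, no low-count filter, a replicate block, fits restricted to the groups compared, fits without each library, and limma 3.58.1 on log2 FPKM with a pseudocount of 1 (also unfiltered) or 0.1, where 2 libraries had to reach an FPKM of 1. Same-group libraries differed beyond counting error (chi-square per gene 9.98 to 65.1), so none was counted as a duplicate. Depth of 15393859 to 18284704 counts limits precision mainly for genes of a few CPM. Gene names, coordinates and promoters come from RefSeq (GRCm38.p6).

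The 32 genes, the roles, the 88 further pathway genes, the markers and the tests were chosen with earlier results of these data known. By rule, a member was given in full where it passed in any comparison or was Cpt1a, Cpt2, Acadm, Hadha, Ehhadh, Acat1, Bdh1 or Ppara. Of the further genes, Oxct1, Pdk4, Ppard, Ppargc1a and Slc16a1 were named, and the 3 largest passing rises and falls per comparison with a mean of at least 1 CPM. Some further genes of these pathways are not reported here and are in no count over the 88.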

Additional observations from a re-analysis of the deposited data

Results flagged for a closer look

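For 4 genes the DSS response differed between WT and TG by the test of the difference itself (edgeR, genotype by DSS interaction, log2 scale). These were Slc25a20 at 1.08 (adjusted p = 0.0423), Acaa1b at 2.01 (adjusted p = 0.0145), Creb3l3 at 2.43 (adjusted p = 0.0444) and Angptl4 at 2.92 (adjusted p = 0.041). In untreated TG each had a lower mean than in untreated WT, and in TG after DSS each had a higher mean than in WT after DSS. Creb3l3 and Angptl4 lay under 12 CPM in every library, and reads of Acaa1b may be shared with Acaa1a. Of these calls only that of Acaa1b held in most fits that left out a single library. Slc25a20 was not called with the replicate number as a block. DSS treatment and sex cannot be told apart here either.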

How the results depend on the processing

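The count of the 32 genes past the threshold was within 1.5 times of the reported one except as follows. For TG against WT untreated (reported 1) it was 2 with DESeq2, total count scaling or limma on log2(FPKM + 1). For TG against WT after DSS (reported 0) it was 4 with DESeq2. For DSS in TG (reported 4) it was 2 in a fit of only the groups compared. For the interaction (reported 1) it was 4 with DESeq2, and 2 with total count scaling, no low-count filter or limma on log2(FPKM + 1), the second gene being Ppara in each of these. With the replicate number as a block the counts were 0, 0, 5, 2 and 0 in the order TG against WT untreated and after DSS, DSS in WT and in TG, and the interaction. Same-numbered libraries had correlations of their deviations from the group means of -0.29 to 0.206. In groups of 2 or 3 libraries such deviations mirror each other, so these values cannot tell whether the numbers pair the samples. Without 1 library at a time the counts ran from 0 to 2, 0 to 3, 3 to 15, 1 to 8 and 0 to 8 in the same order, and the highest value of each range came without TG untreated 1. No called fold change reversed. Among those not called, the log2 fold change of Slc25a20 with DSS in WT ran from -0.42 without WT DSS 1 to 0.02 without WT DSS 2, and that of Ppara with DSS in TG from -0.11 without TG untreated 2 to 0.04 without TG untreated 3, with 0.03 without TG untreated 1 and 0.00 without TG DSS 2. Of the 33 calls named for single genes, 254 of 293 values under other settings and 219 of 330 without 1 library stayed past the threshold. Total count scaling moved the median of all genes to -0.096 at most. With 2 DSS libraries per genotype, a fit without a DSS library assumes that the one left varies like the other groups. Low levels, as of Angptl4, limit precision by depth.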
